A study of Homo sapiens with 4 samples.

Results

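The genes described here make up the machinery that releases paused RNA polymerase II: the 7SK particle proteins HEXIM1 and LARP7, the P-TEFb kinase CDK9 with its cyclins CCNT1 and CCNT2, the transcriptional kinases CDK7, CDK12 and CDK13, and the bromodomain gene BRD2. They were chosen by name: every probe set whose annotation gives 1 of these 9 symbols and no other was taken, which gave 34 of the 54675 probe sets on the array. Of the 34, 29 passed a filter on dim signal (a mean of at least 3.32 log2 over the arrays), and all 9 genes had at least 1 of them. All cells were of KYSE410, an established human line of esophageal squamous carcinoma. They received YM155 at 20 nM for 6 h (2 arrays) or no drug (2 arrays, untreated), and total RNA was labelled with biotin for Affymetrix arrays. YM155 is known as a small-molecule suppressor of survivin expression. A treatment protocol among the labels names cisplatin, but the treatment label of each sample names YM155 or no drug and is followed here.

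P-TEFb, a pair of the kinase CDK9 and a T-type cyclin, phosphorylates the polymerase tail and the factors that hold the polymerase near the start of a gene, and so lets it elongate. Much of the cell's P-TEFb is kept inactive in the 7SK particle, in which the RNA-binding protein LARP7 stabilises 7SK RNA and HEXIM1 inhibits the kinase. When transcription is blocked, P-TEFb leaves the particle, and HEXIM1 is itself a gene that freed P-TEFb is known to switch on, which closes a feedback loop. The comparison of YM155 with untreated cells asks whether that feedback is seen at the level of HEXIM1 mRNA.

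The promoters of HEXIM1 and CDK9 are shown because the question concerns HEXIM1 and the largest negative difference belongs to CDK9. Each window runs from 250 bases before to 50 after the RefSeq start in GRCh38.p14, on the plus strand. Capitals mark matches, on either strand, to TATAAA (the TATA box), CCAAT (a motif that NF-Y binds), GGGCGG (the GC box) and CGGAAG (an ETS factor core), and in CDK9 a GC box and an ETS core overlap.
HEXIM1, chr17:45148225-45148524: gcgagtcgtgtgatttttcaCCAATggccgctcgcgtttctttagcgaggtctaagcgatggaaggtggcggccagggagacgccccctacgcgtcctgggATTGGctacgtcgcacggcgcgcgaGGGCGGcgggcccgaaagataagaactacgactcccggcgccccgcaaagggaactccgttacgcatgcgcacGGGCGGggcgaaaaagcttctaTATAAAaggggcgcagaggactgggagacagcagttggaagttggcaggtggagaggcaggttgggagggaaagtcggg
CDK9, chr9:127785784-127786083: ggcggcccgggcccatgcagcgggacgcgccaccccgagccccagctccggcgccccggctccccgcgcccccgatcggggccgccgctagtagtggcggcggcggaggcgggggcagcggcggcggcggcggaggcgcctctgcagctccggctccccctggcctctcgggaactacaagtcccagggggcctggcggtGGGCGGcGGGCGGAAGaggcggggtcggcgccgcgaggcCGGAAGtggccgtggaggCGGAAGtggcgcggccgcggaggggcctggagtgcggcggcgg

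RefSeq gave 16 such windows for the 9 genes. Some genes had several windows, and those of CDK7 and of CDK13 overlapped, so the windows are not independent. HEXIM1 was the one gene of the 9 with TATAAA in its window, a hexamer found in 11.5% of 35116 windows of all genes. The CDK9 window held 2 GC boxes and 3 ETS cores, and 82.0% of its bases were G or C, against 62.0% in HEXIM1 and a median of 58.7% over all windows. GC boxes stood in 12 of the 16 windows and in 45.0% of all, ETS cores in 6 of 16 and in 19.5% of all, and CCAAT in 4 of 16 and in 34.6% of all. The E-box CACGTG (3 of 16 windows, in CCNT1 and CDK7, and 7.26% of all) and the AP-1 motif TGANTCA (1 of 16, in BRD2, and 7.71% of all) were searched as well. A match is only a run of letters and was not shown to be bound.

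HEXIM1 did not differ detectably after YM155. On the brightest probe set, CDK9 and LARP7 stood lower in both YM155 arrays than in either untreated array, and CCNT2, CDK12, CDK13 and BRD2 stood higher. The other probe sets of CDK9 and LARP7 above the filter had positive differences. The deposited values set all arrays to a common distribution, so each value is relative to the other genes and a loss of mRNA shared by all genes would not be seen. Each gene is represented by its brightest probe set, differences are YM155 minus untreated on the log2 scale with the standard error (SE), and the test was limma with Benjamini-Hochberg adjustment over 14043 genes. At an adjusted p under 0.05, limma called 0 of the 9 genes, and 0 of 14043 genes (0% higher and 0% lower). At an unadjusted p under 0.05, 1 of the 9 was higher (CCNT2) and 1 lower (CDK9), where 5.23% of all genes were higher and 7.48% lower. Both YM155 arrays lay above both untreated arrays for 4 of the 9 genes, against 19.3% of all genes, and below them for 2 of the 9 (CDK9 and LARP7), against 25.6%. Differences were positive for 6 of the 9 genes, against 47.1% of all genes, and the median difference was 0.18 over the 9 genes and −0.015 over all genes tested. With 2 arrays against 2, an exact permutation test of a single value cannot give a two-sided p below 0.333.

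**Figure D1:**
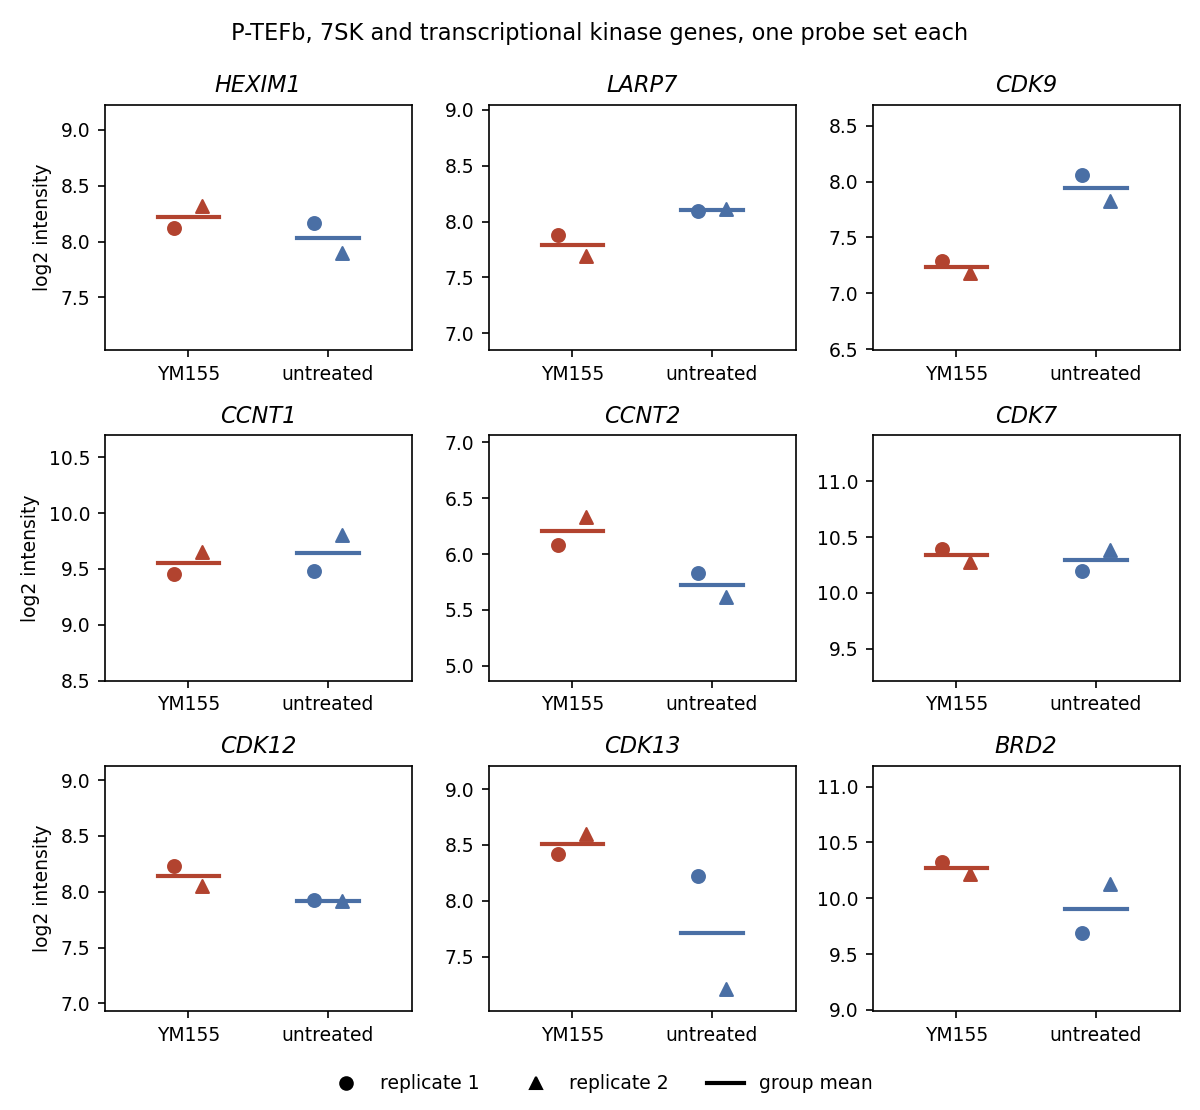
Log2 intensity of each gene's brightest probe set in YM155 arrays (red, left) and untreated arrays (blue, right), with circles for replicate 1, triangles for replicate 2 and bars for group means; all panels span the same range of log2 units around the gene's own mean. CDK9 and LARP7 have both YM155 points below both untreated points, CCNT2, CDK12, CDK13 and BRD2 have both above, and in HEXIM1, CCNT1 and CDK7 the groups overlap.

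The arrays were not equally alike. Of 32768 probe sets, 56 differed 2-fold or more between the 2 YM155 arrays and 1690 between the 2 untreated arrays. Differences of the 9 genes, and of some list genes, are therefore also given against each untreated array. The ratio of 3' to 5' signal of ACTB, a measure of RNA and labelling quality, was 2.10 and 2.95 log2 in YM155 and 2.72 and 2.18 log2 in untreated arrays, so the groups overlapped. Of 9 squamous epithelium markers, 6 had a named probe set, all 6 lay above the filter's limit, and their summed intensity was 13.6 and 13.7 log2 in YM155 against 12.9 and 13.2 log2 in untreated arrays. No marker of fibroblasts, leukocytes, endothelium or glandular epithelium reached 8 log2: 4 of 7, 2 of 5, 2 of 5 and 2 of 6 with a named probe set lay above the filter's limit, led by COL1A1 at 6.16, and the defining leukocyte marker PTPRC was at 2.09. The titles of the YM155 arrays carry the marks B1 (replicate 1) and B2 (replicate 2), which the labels do not explain, and those of the untreated arrays carry no such mark. The labels name no culture or day, so the p-values rest on variation among the arrays that could be technical.

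HEXIM1, the inhibitor of CDK9 in the 7SK particle, read 8.12 and 8.32 log2 in YM155 arrays, against 8.17 and 7.90 log2 in untreated arrays. The groups overlapped, since YM155 replicate 1 lay between the untreated arrays. The difference was 0.18 ± 0.16 log2 (SE; limma adjusted p = 0.703), a 1.14-fold level with a 95% interval from 0.845- to 1.53-fold. An increase above 1.53-fold thus lay outside the interval, while a smaller one, or none, lay within it. The YM155 mean stood 0.052 above untreated replicate 1 and 0.32 above untreated replicate 2. A second HEXIM1 probe set, 202815_s_at, read 6.94 and 7.12 log2 in YM155 and 6.97 and 6.99 log2 in untreated arrays, a difference of 0.049 ± 0.14 (SE). Its remaining probe set, 238442_at, was below the filter, at 2.47 and 2.28 log2 in YM155 and 3.02 and 2.27 log2 in untreated arrays. All HEXIM1 probe sets overlapped between the groups. By the distance between values over the 4 arrays, after each gene's own mean was taken off, the genes nearest to HEXIM1 were SSH2 (0.016), FER1L4 (0.020), CDC42EP2 (0.020), TAOK1 (0.021) and NHLRC3 (0.023). Such a pattern was common: 1067 of 14042 other genes lay within a distance of 0.2.

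LARP7, which binds and stabilises 7SK RNA, read 7.88 and 7.70 log2 in YM155 and 8.10 and 8.12 log2 in untreated arrays. Both YM155 arrays were lower, by 0.31 and 0.33 in mean from untreated replicates 1 and 2, and the difference was −0.32 ± 0.14 (SE; limma adjusted p = 0.433). Its other probe sets were dim and went the other way. Probe set 241385_at read 3.54 and 3.83 log2 in YM155 and 3.43 and 3.20 log2 in untreated arrays, and 215246_at, whose groups overlapped, had a difference of 0.27 ± 0.25 (SE). The direction for LARP7 thus rests on the brightest probe set: the mean of its 3 probe sets gave 0.11.

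**Figure D2:**
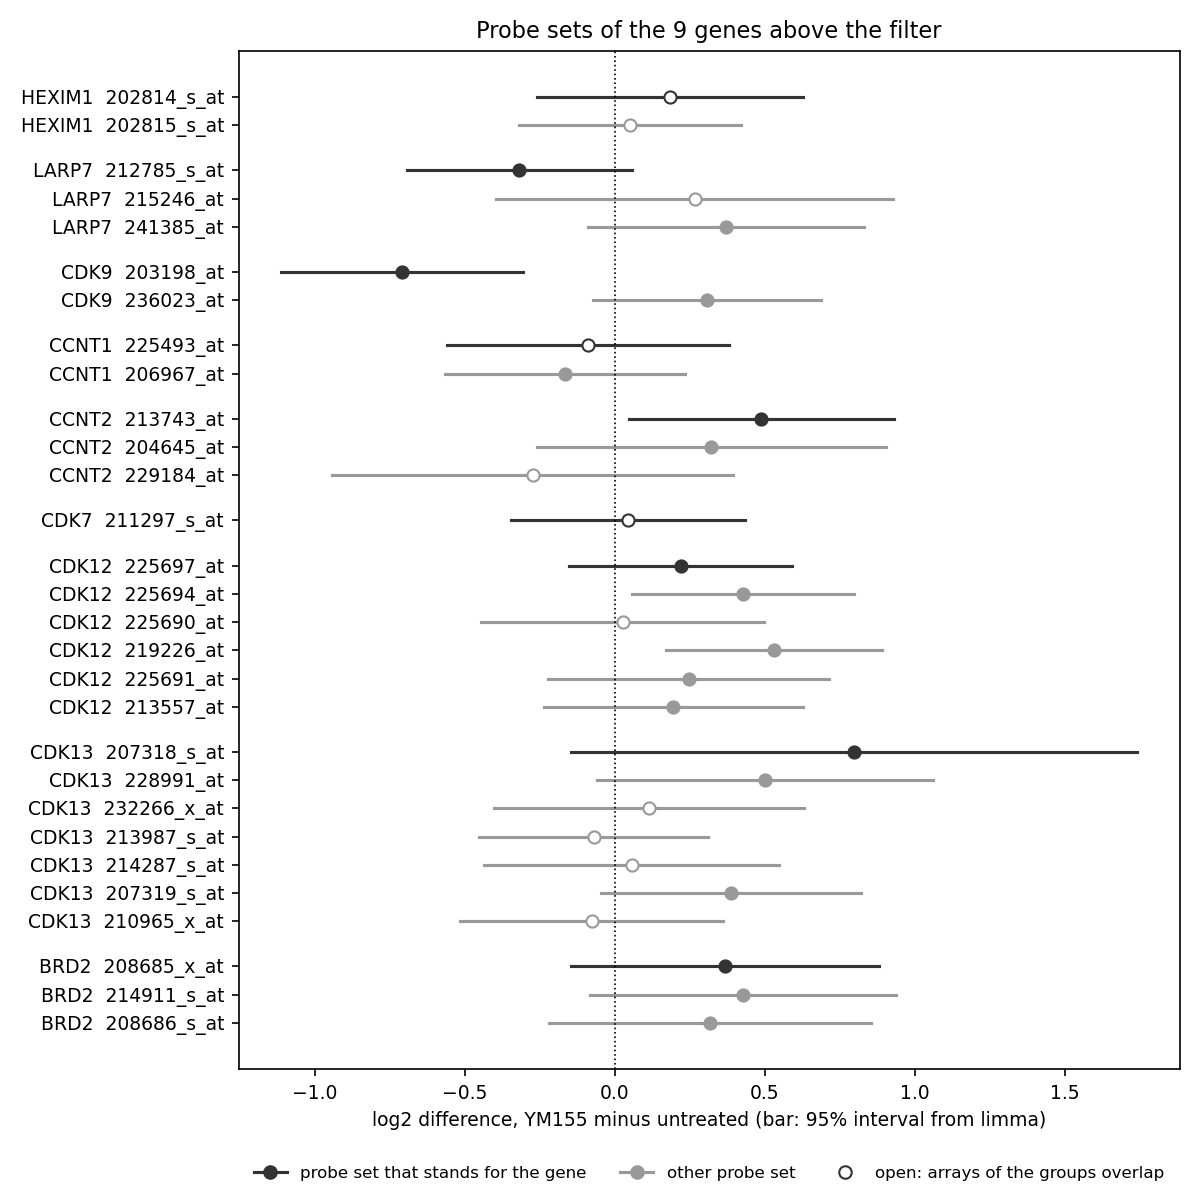
Log2 difference, YM155 minus untreated, for the 29 probe sets of the 9 genes above the filter, with 95% intervals from limma. Black marks the probe set that stands for the gene, grey the others, and open circles those whose groups overlap; the probe sets of CDK9 and of LARP7 lie on both sides of 0, while all those of BRD2 and CDK12 lie above it.

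CDK9, the kinase of P-TEFb, had the largest negative difference of the 9 genes. It read 7.29 and 7.18 log2 in YM155 arrays, against 8.06 and 7.83 log2 in untreated arrays. Both YM155 arrays lay below both untreated arrays, and the gap between the groups exceeded the spread within either. The difference was −0.71 ± 0.15 log2 (SE; limma adjusted p = 0.232), a level of 0.612 times that of untreated cells with a 95% interval from 0.468 to 0.799 times. Against untreated replicate 1 it came to −0.83, and against untreated replicate 2 to −0.59. It ranked 799 of 14043 genes by size and 336 by p. The second CDK9 probe set, 236023_at, went the other way, at 5.47 and 5.27 log2 in YM155 and 5.05 and 5.08 log2 in untreated arrays, and its difference was 0.31 ± 0.14 (SE; adjusted p = 0.522 by limma). The log2 ratio of the first to the second was 1.82 and 1.91 in YM155 and 3.01 and 2.75 in untreated arrays, a contrast of probe sets already seen to lie on opposite sides, given with no test. Its remaining probe set, 228901_at, was below the filter, between 2.24 and 2.59 log2 on the 4 arrays. The sources used here do not say which part of the transcript each probe set reads.

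The T-type cyclins that pair with CDK9 stood on different sides of 0. CCNT1 read 9.45 and 9.65 log2 in YM155 and 9.48 and 9.80 log2 in untreated arrays, and the groups overlapped (−0.089 ± 0.17, SE; limma adjusted p = 0.883). The sign turned with the untreated array, at 0.073 from replicate 1 and −0.25 from replicate 2. Its other probe set, 206967_at, read 6.49 and 6.57 log2 in YM155 and 6.58 and 6.81 log2 in untreated arrays, with no overlap and a difference of −0.17 ± 0.15 (SE). CCNT2 read 6.08 and 6.34 log2 in YM155 and 5.83 and 5.62 log2 in untreated arrays, so both YM155 arrays were higher. The difference was 0.49 ± 0.16 (SE; limma adjusted p = 0.344), or 1.40-fold with a 95% interval from 1.05- to 1.88-fold. Set against each untreated array alone, CCNT2 differed by 0.38 (replicate 1) and 0.59 (replicate 2). A second CCNT2 probe set, 204645_at, read 5.56 and 5.64 log2 in YM155 and 5.55 and 5.01 log2 in untreated arrays: YM155 replicate 1 was nearly level with untreated replicate 1, and the difference of 0.32 ± 0.22 (SE) came mainly from untreated replicate 2. The dim probe set 229184_at gave −0.28 ± 0.26 (SE) with overlap, and 214638_s_at was below the filter, between 2.45 and 2.84 log2. The ratio of CCNT2 to CCNT1 was 0.58 log2 higher in YM155 than in untreated arrays, without overlap, a contrast chosen after the values were seen and given with no test.

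CDK7, the kinase of the general factor TFIIH that marks the polymerase tail at initiation and activates CDK9, did not differ detectably. It read 10.4 and 10.3 log2 in YM155 and 10.2 and 10.4 log2 in untreated arrays, on its 1 probe set. The groups overlapped, and the difference was 0.045 ± 0.14 (SE; limma adjusted p = 0.941), with a 95% interval from −0.33 to 0.42 log2. Set against each untreated array alone, CDK7 differed by 0.14 (replicate 1) and −0.051 (replicate 2), so its sign turned.

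CDK12 and CDK13 are related kinases that pair with cyclin K and support elongation, and CDK12 is known for its part in the expression of long DNA repair genes. CDK12 read 8.23 and 8.05 log2 in YM155 and 7.92 and 7.92 log2 in untreated arrays on its brightest probe set. Both YM155 arrays were higher, the difference was 0.22 ± 0.13 (SE; limma adjusted p = 0.576), and it was the same against each untreated array to within 0.01 (0.21 and 0.22). All 6 CDK12 probe sets above the filter had positive differences, from 0.025 to 0.53, against 47.2% positive among all probe sets. Both YM155 arrays lay above both untreated arrays in 5 of them, against 19.4% of all probe sets. The largest, 219226_at, read 7.71 and 7.69 log2 in YM155 and 7.24 and 7.10 log2 in untreated arrays (0.53 ± 0.14, SE; limma adjusted p = 0.344 over 32768 probe sets). Probe set 225694_at read 8.12 and 7.95 log2 in YM155 and 7.61 and 7.61 log2 in untreated arrays (0.43 ± 0.14, SE; adjusted p = 0.41 by limma). The untreated arrays were close together in both, unlike in CDK13. The exception, 225690_at, overlapped, at 7.43 and 7.69 log2 in YM155 and 7.68 and 7.39 log2 in untreated arrays. Probe sets 225691_at and 213557_at cleared untreated replicate 1 only narrowly. The former read 7.01 and 6.90 log2 in YM155 and 6.89 and 6.53 log2 in untreated arrays. The latter, which was dim, read 4.02 and 4.33 log2 in YM155 and 4.02 and 3.94 log2 in untreated arrays. The other 2 CDK12 probe sets were below the filter, between 1.65 and 2.23 log2.

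CDK13 had the largest positive difference of the 9 genes, but its size depended on the untreated array. It read 8.42 and 8.60 log2 in YM155 and 8.22 and 7.20 log2 in untreated arrays. Both YM155 arrays were higher, and untreated replicate 2 stood 1.01 below untreated replicate 1. The difference was 0.80 ± 0.36 (SE; limma adjusted p = 0.454), at 0.29 from untreated replicate 1 and 1.30 from untreated replicate 2. Leaving out untreated replicate 1 likewise gave 1.30, in a fit that rests on a lone untreated array. Of the 7 CDK13 probe sets, all above the filter, 5 had positive differences, against 47.2% of all probe sets. Both YM155 arrays lay above both untreated arrays for 3, against 19.4% of all probe sets. Among them 228991_at read 7.60 and 7.99 log2 in YM155 and 7.46 and 7.13 log2 in untreated arrays (0.50 ± 0.21, SE), and 207319_s_at had a difference of 0.39 ± 0.17 (SE). The remaining 4 overlapped and lay between −0.078 and 0.11.

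**Figure D3:**
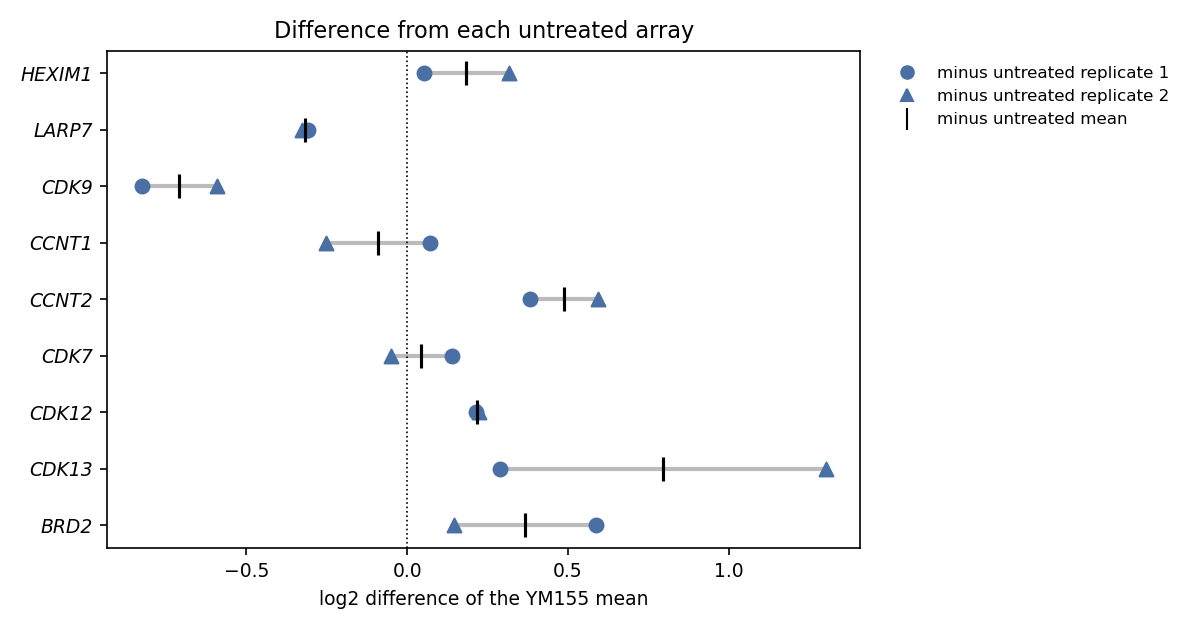
Log2 difference of the mean of the YM155 arrays from untreated replicate 1 (circles), untreated replicate 2 (triangles) and their mean (vertical ticks) for each gene's brightest probe set. The grey line spans the pair of values: it is short for LARP7 and CDK12, reaches from 0.29 to 1.30 for CDK13, and crosses 0 for CCNT1 and CDK7.

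BRD2, a BET bromodomain protein that binds acetylated histones at active genes, stood higher on all 3 of its probe sets. The brightest read 10.3 and 10.2 log2 in YM155 and 9.68 and 10.1 log2 in untreated arrays, with a difference of 0.37 ± 0.19 (SE; adjusted p = 0.515 by limma), or 1.29-fold with a 95% interval from 0.911- to 1.82-fold. Both YM155 arrays were higher, but untreated replicate 2 was only 0.15 below their mean, against 0.59 for untreated replicate 1. Probe sets 214911_s_at (0.43 ± 0.19, SE) and 208686_s_at (0.32 ± 0.20, SE) had the same order of arrays and no overlap. BRD2 thus differed most from untreated replicate 1, and HEXIM1, CCNT2 and CDK13 most from untreated replicate 2.

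Counted by probe set, 22 of the 29 had positive and 7 negative differences, where 47.2% of all 32768 probe sets were positive. Both YM155 arrays lay above both untreated arrays for 15 of 29, against 19.4% of all probe sets, and below them for 3, against 23.9%. By limma, 0 of 29 passed an adjusted p under 0.05, as did 0 of all 32768 (0%). At an unadjusted p under 0.05, 3 were higher (2 of CDK12 and 1 of CCNT2) and 1 lower (CDK9), where 5.03% of all were higher and 6.06% lower. CDK12, CDK13 and BRD2 held 11 of the 15, and probe sets annotated to the same gene are not independent.

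Among other proteins that hold or recruit P-TEFb, 7 of 16 genes tested had positive and 9 negative differences (median −0.063), against 47.1% positive and a median of −0.015 over all genes. In limma 0 of them passed the adjusted threshold, and at an unadjusted p under 0.05, 0 were higher and 3 lower (ELL3, HEXIM2 and ZMYND8), where 5.23% and 7.48% of all genes were. ELL3, an elongation factor of the super elongation complex family, stood lowest, at 6.67 and 6.85 log2 in YM155 and 7.58 and 8.29 log2 in untreated arrays (−1.18 ± 0.27, SE; limma adjusted p = 0.242), and its second probe set gave −1.18 as well. HEXIM2, the paralog that can take the place of HEXIM1 in the 7SK particle, read 5.43 and 5.39 log2 in YM155 and 5.89 and 6.02 log2 in untreated arrays (−0.55 ± 0.13, SE; limma adjusted p = 0.248). Its second probe set gave −0.64, also without overlap. The log2 ratio of HEXIM1 to HEXIM2 was 0.73 higher in YM155 than in untreated arrays, at 2.69 and 2.93 against 2.28 and 1.88, a contrast chosen after the values were seen and given with no test. BRD3, the BET relative of BRD2, stood at −0.53 ± 0.21 (SE) and gave −0.50 on its other probe set, and it differed by −0.78 and −0.28 from untreated replicates 1 and 2. ELL3 was at −0.82 and −1.53 from the same arrays. ZMYND8, a bromodomain protein reported to bind P-TEFb, stood at −0.52 ± 0.15 (SE; limma adjusted p = 0.301), and its other probe sets gave −0.60, −0.20 and −0.051. BRD2 and BRD3 thus lay on opposite sides of their untreated arrays. RN7SK and AFF3 were not analysed here.

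Factors of pausing and elongation had differences below 0.4 log2 in size on the probe set that stands for each gene. Of 15 tested, 8 had positive and 7 negative differences (median 0.044), against 47.1% positive and a median of −0.015 over all genes. At an unadjusted p under 0.05 in limma, 0 were higher and 0 lower, where 5.23% and 7.48% of all genes were. The largest differences belonged to members of the PAF1 complex, which travels with the elongating polymerase. RTF1 stood at 0.37 ± 0.18 (SE), LEO1 at −0.33 ± 0.14 and CDC73 at 0.33 ± 0.21, and the histone chaperone partner IWS1 at −0.27 ± 0.18. CDC73 overlapped between the groups on that probe set, while its others, 0.36 and 0.19, did not overlap. The other IWS1 probe set gave −0.53 without overlap, and other RTF1 probe sets gave −0.025 and 0.040.

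Of 18 tested partners of the other transcriptional kinases, 7 had positive and 11 negative differences (median −0.033), and 0 passed the adjusted threshold in limma, with 1 higher and 2 lower (CDK19 and GTF2H4) at an unadjusted p under 0.05, against 5.23% higher and 7.48% lower of all genes. The one that was higher, the small TFIIH subunit gene GTF2H5, stood at 0.40 ± 0.13 (SE) and is named here after its values were seen. CDK19, the paralog of the Mediator kinase CDK8, read 7.31 and 7.26 log2 in YM155 and 7.86 and 7.90 log2 in untreated arrays (−0.60 ± 0.12, SE; limma adjusted p = 0.232), and its other probe sets gave −1.27, −0.40 and −0.21. GTF2H4, a TFIIH core subunit, read 7.72 and 7.71 log2 in YM155 and 8.17 and 8.21 log2 in untreated arrays (−0.47 ± 0.12, SE). On the probe set that stands for the gene, both CDK19 and GTF2H4 had close replicates in each group. The CDK19 probe set at −1.27 did not: it read 3.33 and 3.68 log2 in YM155 and 3.71 and 5.84 log2 in untreated arrays. Its difference thus came mainly from untreated replicate 2. The CDK19 probe set at −0.40 had no overlap between the groups, and that at −0.21 overlapped. CCNH, the cyclin of CDK7, stood at −0.44 ± 0.17 (SE) without overlap, and MNAT1, the assembly factor of the same kinase, named here after its values were seen, at −0.37 ± 0.16. CCNL2, the cyclin of the CDK11 kinases, stood at −0.44 ± 0.23 (−0.73 from untreated replicate 1 and −0.16 from untreated replicate 2), and its other probe sets gave −0.37 without and −0.017 with overlap.

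Of 9 tested polymerase tail phosphatases and capping enzymes, 3 had positive and 6 negative differences (median −0.22), against 47.1% positive among all genes, with 0 passing the adjusted threshold and, at an unadjusted p under 0.05 in limma, 1 higher and 2 lower, against 5.23% and 7.48% of all genes. The small tail phosphatase gene CTDSP2 read 7.69 and 7.64 log2 in YM155 and 8.49 and 8.31 log2 in untreated arrays (−0.74 ± 0.14, SE; limma adjusted p = 0.203). Its other probe set gave −1.20 ± 0.49 (SE), at 6.13 and 6.24 log2 in YM155 and 6.66 and 8.11 log2 in untreated arrays. CTDSPL, of the same family, stood at −0.64 ± 0.16 (SE; limma adjusted p = 0.261), and its other probe sets gave −0.49, −0.39, −0.17 and 0.039. RAMAC, the activating subunit of the cap methyltransferase, stood at 0.45 ± 0.17, with 0.13 and overlap on its other probe set, and CDC14B at −0.32 ± 0.17, with its other probe sets between −0.76 and −0.077.

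Genes that respond to P-TEFb release or BET inhibition in other cells had no common direction. Some of them, such as H2BC21, are known to rise under BET inhibitors and others, such as CD180, to fall. Of 6 tested, 4 had positive and 2 negative differences (median 0.17), and 0 passed the adjusted threshold in limma, with 1 higher (SERTAD1) at an unadjusted p under 0.05, against 5.23% of all genes. SERTAD1, a cell cycle regulator, read 7.50 and 7.50 log2 in YM155 and 5.72 and 6.86 log2 in untreated arrays (1.21 ± 0.39, SE; limma adjusted p = 0.335). The histone gene H2BC21 read 6.27 and 6.15 log2 in YM155 and 6.81 and 8.84 log2 in untreated arrays (−1.62 ± 0.67, SE). The linker histone gene H1-2 stood at −0.63 ± 0.40 with overlap, and CD180, from a dim probe set, at 0.24 ± 0.13. In H2BC21 and SERTAD1 the untreated arrays differed from each other by more than 1 log2. From untreated replicates 1 and 2, H2BC21 was at −0.61 and −2.64, SERTAD1 at 1.78 and 0.64, and H1-2 at −0.077 and −1.19.

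More of the listed short-lived transcripts had positive than negative differences, on a list written with earlier results of these data known. Whether transcription was blocked was not tested. Of 20 tested, 14 had positive and 6 negative differences (median 0.73), and 11 lay above and 4 below untreated without overlap, against 19.3% and 25.6% of all genes. By limma, 0 passed the adjusted threshold, and 8 were higher and 1 lower (IER3, named after its values were seen, at −0.87 ± 0.20, SE) at an unadjusted p under 0.05, against 5.23% and 7.48% of all genes. The median was 1.03 from untreated replicate 1 but 0.031 from untreated replicate 2. DUSP1, a MAP kinase phosphatase, stood at 1.85 ± 0.32 (SE), MYC, a growth-promoting transcription factor, at 1.38 ± 0.34, FOSB, an AP-1 factor, at 1.37 ± 0.58 and SOCS3, a cytokine feedback inhibitor, at 1.33 ± 0.21. SOCS3 read 7.69 and 7.47 log2 in YM155 and 6.01 and 6.49 log2 in untreated arrays. Probe sets of a gene did not always give the same value: the other DUSP1 probe sets gave 0.20 and −0.048, and those of SOCS3 gave 0.81, 0.23 and −0.12. From untreated replicates 1 and 2, DUSP1 was at 2.14 and 1.55, MYC at 1.80 and 0.96, FOSB at 2.24 and 0.50, and SOCS3 at 1.57 and 1.09.

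**Figure D4:**
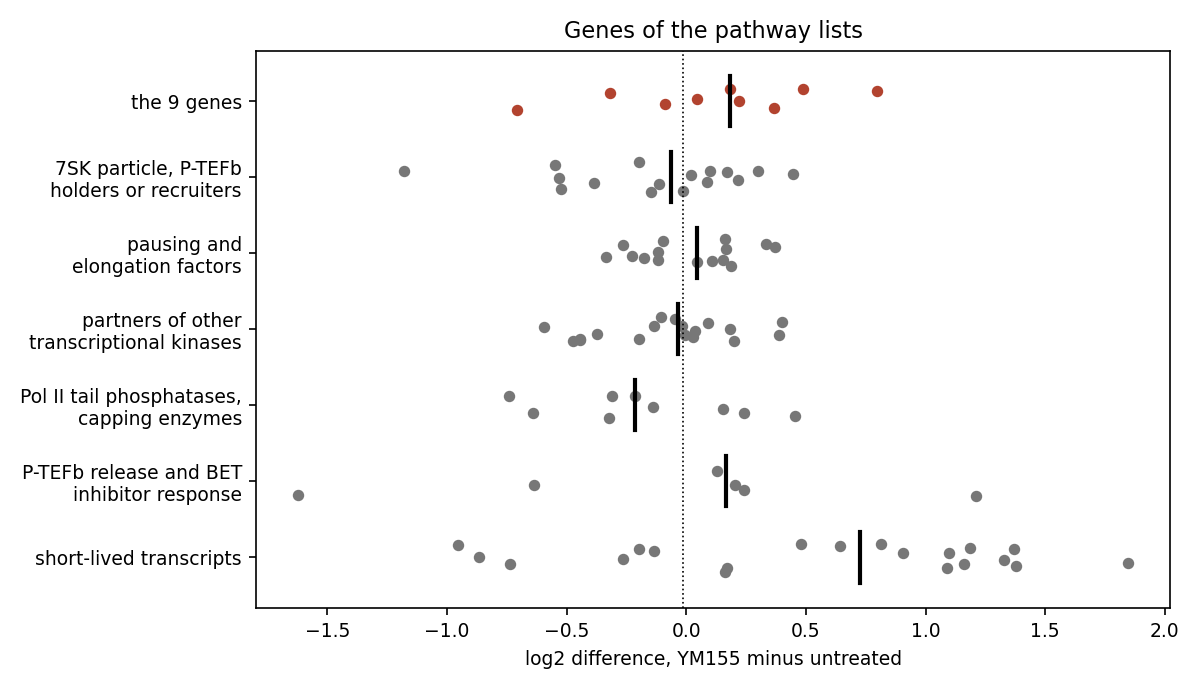
Log2 difference, YM155 minus untreated, of each tested gene (points, spread vertically at random) in the 9 genes described here and in 6 lists of related genes, with the median of each as a black bar and the median of all genes tested as a dotted line. The 4 lists of pathway factors have medians between −0.22 and 0.044, and 14 of 20 short-lived transcripts lie above it.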

How the data were processed

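RNA of KYSE410 cells was measured on 4 Affymetrix arrays, 2 YM155 and 2 untreated, grouped by their treatment labels. The authors deposited 1 intensity per probe set, made with RMA per the submitters' processing notes; the sources used here do not give its version. The deposited values, an intensity between 2.42 and 15214, were linear, so log2 was taken, with no pseudocount. RMA sets arrays to a common distribution, so a shift shared by all genes is not measured. The number of arrays limits the precision.

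Control probe sets (62) and those with a mean below the 40th percentile (3.32 log2) were left out, which kept 32768. Genes were named by the platform annotation where it gave 1 symbol (41091 probe sets), and each was represented by its brightest probe set, which gave 14043 genes. Groups were compared with limma 3.58.1 in R 4.3.3 (two-sided, Benjamini-Hochberg, threshold 0.05, prior degrees of freedom 2.69), over genes and over probe sets.

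The genes and lists were chosen with earlier results of these data known. The rule named the 9 genes and their probe sets, the 4 tested genes of largest absolute difference per list, and the 5 genes nearest HEXIM1; GTF2H5, MNAT1 and IER3 were named after their values were seen. Promoters came from RefSeq (GRCh38.p14), which matched 9 of 9 genes. The alternatives tried were other filters, probe set choices, scalings, an added constant of 16, eBayes with trend and robust, a replicate block, and leaving out each array. Array weights and the ACTB ratio as a covariate were added after seeing the data. Same-numbered arrays did not deviate together (correlation over probe sets −0.033).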

Additional observations from a re-analysis of the deposited data

How the results depend on the processing

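Leaving out untreated replicate 1 gave 604 genes higher and 521 lower in limma, and every other setting gave 0 and 0; that fit assumes that a lone untreated array varies like the YM155 arrays. Leaving out 1 array at a time gave differences between these bounds: 0.052 to 0.32 for HEXIM1, −0.41 to −0.23 for LARP7, −0.83 to −0.59 for CDK9, −0.25 to 0.073 for CCNT1, 0.36 to 0.61 for CCNT2, −0.051 to 0.14 for CDK7, 0.13 to 0.31 for CDK12, 0.29 to 1.30 for CDK13 and 0.15 to 0.59 for BRD2. LARP7 turned to 0.11 with the mean of its probe sets and to 0.27 without those ending in _s_at or _x_at, a setting that left HEXIM1, CDK7 and BRD2 with no value. The mean of probe sets gave −0.20 for CDK9, 0.18 for CCNT2 and 0.24 for CDK13. Among single probe sets, leaving out arrays gave ranges across 0: −0.037 to 0.14 (202815_s_at of HEXIM1), −0.039 to 0.57 (215246_at of LARP7), −0.61 to 0.057 (229184_at of CCNT2), −0.12 to 0.17 (225690_at of CDK12), and for CDK13 −0.10 to 0.33 (232266_x_at), −0.16 to 0.018 (213987_s_at), −0.092 to 0.20 (214287_s_at) and −0.21 to 0.055 (210965_x_at). Probe set 225690_at gave −0.00072 with the ACTB ratio as a covariate, and FER1L4 −0.014 without suffixed probe sets. The replicate block left every count of calls at 0 and HEXIM1 at 0.18; same-numbered arrays share only a number, so it is given here alone. List medians moved with the setting as follows. For the P-TEFb holders the median was −0.11 with no filter, −0.12 with the mean of probe sets and −0.013 without suffixed probe sets, and −0.14 to 0.0029 over the arrays left out. For elongation factors it was 0.16 without suffixed probe sets, and −0.073 to 0.15 over the arrays left out. Kinase partners ran from −0.19 to 0.011 and short-lived transcripts from 0.031 to 1.03 over the arrays left out. Phosphatases and capping enzymes gave −0.044 with the mean of probe sets, and −0.26 to 0.062 over the arrays left out. The P-TEFb release list gave −0.21 with the filter at the 60th percentile, and 0.033 to 0.26 over the arrays left out. The cause of these shifts was not tested.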
